A study of Mus musculus with 9 samples.

Results

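Spliceosome genes are the 63 genes of the deposited expression table whose pathway annotation holds the exact term Spliceosome and whose mean level over the 9 libraries was at least 1 FPKM (fragments scaled by transcript length and by library size). The table lists 6462 genes, of which 5643 passed that same filter and were tested. All 63 genes with the term passed the filter, from Magohb with a mean of 5.84 FPKM to Hspa8 with 1336 FPKM, so the filter removed no member. The RNA came from BV2, an immortalized mouse microglial line labelled as brain microglia. Each of 3 groups had 3 libraries: untreated cells (0 h), and cells given 200 ng/ml of bacterial lipopolysaccharide (LPS), an activator of Toll-like receptor 4, which were taken after 1 h or after 12 h. The series title places the data in a study of the kinase PLK2, the chaperone HSP90α and the kinase IKKβ in microglial activation.

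The spliceosome removes introns from newly made transcripts. Its core is a set of small nuclear ribonucleoproteins (snRNPs), each a small RNA bound by Sm or LSm ring proteins and by proteins of its own, which recognise the intron ends and the branch point and then join into the catalytic complex. Serine and arginine rich (SR) proteins and their Tra2 relatives bind exons and help recruit the snRNPs, whereas heterogeneous nuclear ribonucleoproteins (hnRNPs) coat the transcript and often weaken the use of a splice site. SR proteins are also known to regulate their own messages through exons that lead to decay of the transcript.

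Of 12 microglia and macrophage markers, 9 were in the table. Summed, they reached 1171 to 1261 FPKM in untreated libraries, 1134 to 1168 FPKM in 1 h libraries and 1038 to 1082 FPKM in 12 h libraries. Single markers went opposite ways from untreated to 12 h: Itgam went from 27.9 ± 0.696 to 70.3 ± 2.43 FPKM and Spi1 from 62.7 ± 1.63 to 89.3 ± 1.31, while Tyrobp went from 559.8 ± 30.5 to 412 ± 15.2, Trem2 from 90.5 ± 2.68 to 47.5 ± 1.80 and Csf1r from 66.1 ± 2.76 to 47.5 ± 1.03 (SD, n = 3). Their part in the member results was not tested. The defining markers P2ry12 and C1qa were near 0, with untreated means of 1.24 and 0.628 FPKM, and Tmem119, Aif1 and Ptprc were not among the 9 in the table. Of the markers of neurons, astrocytes, oligodendrocytes, endothelial cells, fibroblasts and T cells, the table held only Olig2, at 0 to 0.0841 FPKM. Whether the libraries are separate cultures is not in the labels, so p-values cover no more than library-to-library spread. Later untreated controls are not among the groups, so LPS cannot be told apart from time in culture. In bulk RNA, fewer cells expressing a gene and less of its RNA per cell cannot be told apart either. The deposited flag was 1 in every listed gene and the highest deposited q-value was 0.0999, which means that the table had been reduced to genes that differ among these libraries.

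The 63 members, from a table reduced to genes that differ among these libraries, were on the whole slightly more abundant after 1 h of LPS. They were less abundant at 12 h than at 1 h. Spliceosome genes missing from the table are not covered. Summed over the 63 members, untreated libraries held 4709 to 4762 FPKM, 1 h libraries 5074 to 5307 FPKM and 12 h libraries 4645 to 4743 FPKM. The 1 h libraries all lay above the other 6, and the untreated and 12 h ranges overlapped. Hspa8 contributed a mean of 1237 FPKM of the untreated sum, and the overlap rested on it. Without Hspa8 the other 62 members summed to 3478 to 3511 FPKM in untreated, 3770.2 to 3844 in 1 h and 3271 to 3349.7 in 12 h libraries, so that all 12 h sums lay below the untreated ones. As a share of the summed FPKM of all listed genes, the members took 2.38% to 2.42% (untreated), 2.49% to 2.59% (1 h) and 2.04% to 2.10% (12 h). That total over listed genes was itself larger after LPS. It spanned 195872 to 198075 FPKM (untreated), 203515 to 205413 (1 h) and 223720 to 228207 (12 h). A lower share in 12 h libraries therefore does not by itself show less member RNA. Replicates were close: the median coefficient of variation over members was 2.78%, 2.98% and 2.52% in the 3 groups, and the largest was 13.1%, for Rbmx in untreated cells.

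At 1 h against untreated, 35 members rose, 3 fell and 25 were not called, at an adjusted p under 0.05 from limma on log2(FPKM + 1). Over all tested genes 24.1% were called higher, 34.9% lower and 59.0% in either direction. The median difference was 0.10 on the log2 scale over members and -0.03 over all tested genes. Changes were small: the largest rise was that of Smndc1, at 0.31 (SE 0.034, adjusted p = 2.92e-06), and the largest drop that of Rp9, at -0.17 (SE 0.049, adjusted p = 0.00895). With quantile normalization between libraries 20 members were higher and 6 lower, so the share of called members that were higher went from 92.1% to 76.9%. Without the second or the third 1 h library 1 member was called lower in place of 3, and 26 or 32 were called higher in place of 35.

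From 1 h to 12 h, 42 members fell, 6 rose and 15 were not called, where 43.6% of tested genes were called lower, 41.9% higher and 85.5% in either direction. The median difference was -0.23 over members and 0.01 over all tested genes. At 12 h against untreated, 30 members were lower, 17 higher and 16 not called, beside 40.6%, 41.1% and 81.7% of tested genes called lower, higher and either way. The medians were -0.06 and 0.03. That last comparison depended on the scaling: with quantile normalization 10 members were higher and 43 lower, and the median was -0.19. The share of called members that were higher went from 36.2% to 18.9%. With that setting 2453 of the 5643 tested genes were called lower and 2129 higher.

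A rise at 1 h followed by a fall from 1 h to 12 h was called in 26 of 63 members (41.3%), and in 706 of the 5643 tested genes (12.5%). Both contrasts use the same 1 h libraries, so a high or low 1 h value enters both. Of the 26 members, 16 ended below untreated, 9 were not called against untreated and 1, Smndc1, stayed above it. Among tested genes 4.15% rose, then fell to below untreated. Of the other members, 16 fell after 1 h without a called rise, 6 rose after 1 h, and 5 (Ncbp1, Prpf38a, Snrpa, Snrpc and U2af1) were called in no contrast. The rest were above untreated with no called change from 1 h to 12 h. Hspa8, Prpf3, Sf3b4, Snrnp70 and U2af2 were called higher at both times, and Dhx38, Dhx8, Phf5a, Pqbp1 and Prpf31 at 12 h only. With quantile normalization 17 members rose and then fell, and at 12 h against untreated Snrpc and U2af1 were called lower, at -0.11 (adjusted p = 0.0103) and -0.13 (adjusted p = 0.00761). Other alternatives also gave calls: U2af1 was higher at 1 h in 6 of 20 and lower from 1 h to 12 h in 3. Against untreated at 12 h, Snrpa was called higher with array weights or without the first untreated library. Prpf38a was called higher there without the second 12 h library.

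**Figure D1:**
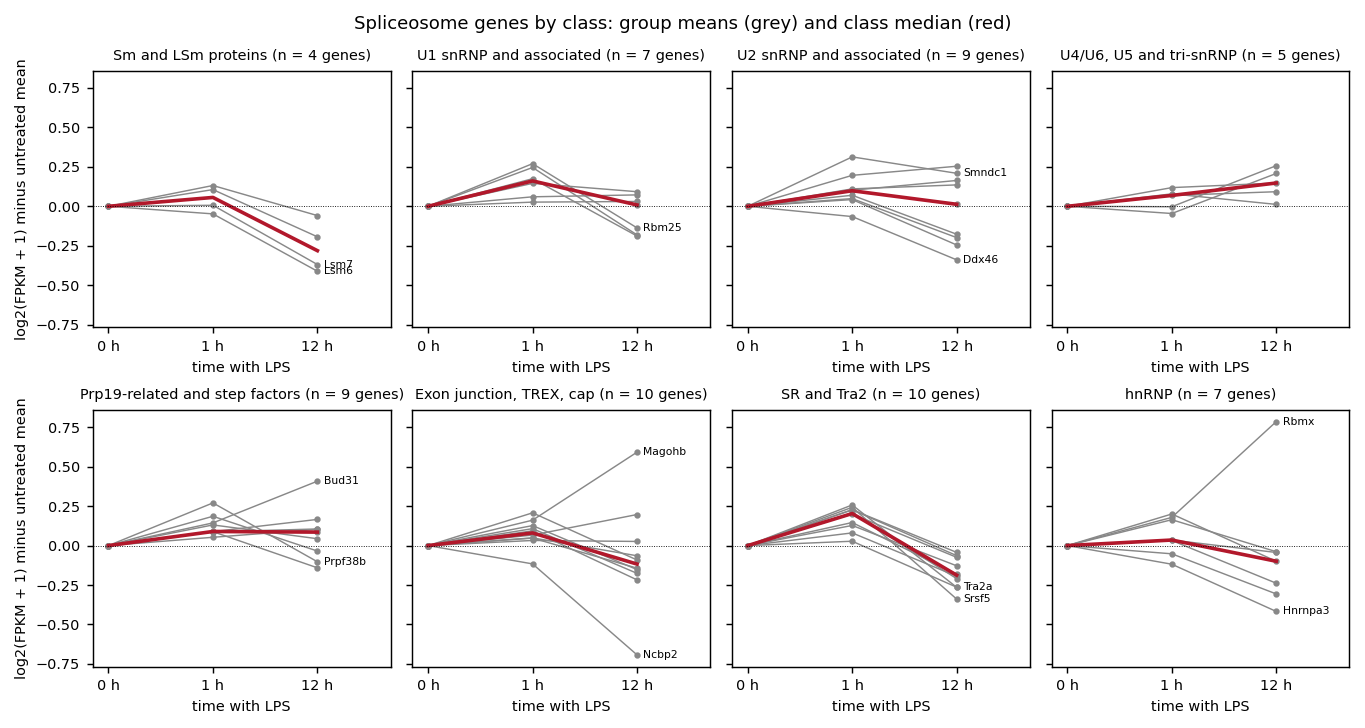
Mean log2(FPKM + 1) of each member at 0, 1 and 12 h minus its untreated mean (grey lines, n = 3 libraries per point), with the class median in red, for 8 classes. SR and Tra2 genes rise together to a median of 0.20 and end at -0.19, whereas U2 and exon junction, TREX and cap-binding genes spread in both directions by 12 h.

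In the SR and Tra2 class nearly all genes rose and then fell. Of its 12 listed genes 10 were in the table. Of these, 9 rose at 1 h, where 24.1% of tested genes were called higher. All 10 fell from 1 h to 12 h and 7 ended below untreated, beside 43.6% and 40.6% of tested genes. In 9 of the 10 genes all 1 h libraries lay above all untreated ones (26.8% of tested genes). In all 10 the 12 h libraries lay below the 1 h ones (44.2%). The class medians were 0.20, -0.29 and -0.19 for 1 h against untreated, 12 h against 1 h and 12 h against untreated. With quantile normalization the last median was -0.34 and all 10 genes were called below untreated at 12 h, and with array weights 9 were. Srsf5, an SR protein that binds exonic enhancers, measured 110.0, 118 and 107 FPKM in the untreated libraries, 137, 133 and 126 at 1 h and 84.6, 94.7 and 85.1 at 12 h. All 1 h values lay above the untreated values and all 12 h values below them. The differences were 0.24 (SE 0.047, adjusted p = 0.000527) at 1 h, -0.58 (SE 0.047, adjusted p = 3.69e-08) from 1 h to 12 h and -0.34 (SE 0.047, adjusted p = 9.36e-06) at 12 h against untreated. Tra2a, a homologue of the fly sex-determination splicing factor Transformer-2, measured 30.5, 32.3 and 33.5 FPKM in the untreated libraries, 40.4, 38.2 and 37.2 at 1 h and 26.3, 27.97 and 25.4 at 12 h. Its groups were equally separate, with differences of 0.26 (SE 0.045, adjusted p = 0.000239), -0.52 (SE 0.045, adjusted p = 8.19e-08) and -0.26 (SE 0.045, adjusted p = 7.65e-05) in the same order.

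Srsf7, an SR protein that also takes part in mRNA export, measured 59.4, 63.5 and 63.3 FPKM in the untreated libraries, 74.4, 71.8 and 69.1 at 1 h and 52.1, 57.2 and 51.5 at 12 h. The 3 groups did not overlap, and the differences were 0.21 (SE 0.043, adjusted p = 0.000924), -0.42 (SE 0.043, adjusted p = 5.26e-07) and -0.21 (SE 0.043, adjusted p = 0.000395). Srsf2, the speckle protein SC35, measured 187, 181 and 187 FPKM in the untreated libraries, 201, 203 and 202 at 1 h and 169, 171 and 168 at 12 h. Its level moved less, by 0.13 and then -0.26, yet no library of one group reached another group. Srsf3, an SR protein of export and splicing, measured 158, 165 and 167 FPKM in the untreated libraries, 172, 173 and 173 at 1 h and 141, 147 and 139.9 at 12 h. The 1 h values were above all untreated values by a narrow margin, with a difference of 0.08 (SE 0.030, adjusted p = 0.0305), and the 12 h values were below both other groups. Srsf4, a large SR protein, measured 12.5, 11.5 and 12.6 FPKM in the untreated libraries, 13.4, 14.2 and 13.2 at 1 h and 10.7, 11.6 and 9.71 at 12 h. This was the least abundant gene of the class, its untreated and 12 h libraries overlapped, and its differences were 0.15 (SE 0.057, adjusted p = 0.0386), -0.33 (SE 0.057, adjusted p = 8.9e-05) and -0.18 (SE 0.057, adjusted p = 0.00887).

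Srsf1, Srsf6 and Tra2b rose and fell again, and whether they ended below untreated depended on the setting: they were not called there at 12 h, but with quantile normalization all 3 were, at -0.26 (adjusted p = 1.16e-05), -0.22 (adjusted p = 6.88e-06) and -0.22 (adjusted p = 9.29e-06). With array weights Srsf1 and Tra2b were called lower too, as was Srsf1 without the first untreated or the first 12 h library, Srsf6 without the second untreated library and Tra2b without the first untreated library. Srsf1, an SR protein of constitutive and alternative splicing, measured 122, 132 and 132 FPKM in the untreated libraries, 146, 146 and 150.3 at 1 h and 125, 121 and 119 at 12 h. The differences were 0.20 (SE 0.034, adjusted p = 0.000175) at 1 h and -0.07 (SE 0.034, adjusted p = 0.0552) at 12 h against untreated. Srsf6 measured 123, 115 and 120.2 FPKM in the untreated libraries, 139, 141 and 140.1 at 1 h and 117, 116 and 116 at 12 h. It was 0.23 (SE 0.028, adjusted p = 9.32e-06) higher at 1 h, and at 12 h it stood -0.04 (SE 0.028, adjusted p = 0.166) from untreated with overlapping libraries. Tra2b measured 78.2, 79.9 and 83.3 FPKM in the untreated libraries, 96.2, 92.7 and 93.9 at 1 h and 77.3, 77.5 and 75.9 at 12 h. The corresponding values were 0.23 (SE 0.030, adjusted p = 2.01e-05) and -0.06 (SE 0.030, adjusted p = 0.0641). Srsf10, an SR protein known as a repressor when it loses its phosphates, was the exception at 1 h. Srsf10 measured 41.9, 46.6 and 43.5 FPKM in the untreated libraries, 44.97, 45.1 and 44.4 at 1 h and 37.6, 37.7 and 34.2 at 12 h. Its 1 h and untreated libraries overlapped, with a difference of 0.03 (SE 0.044, adjusted p = 0.603), and it fell from 1 h to 12 h with a difference of -0.29 (SE 0.044, adjusted p = 2.26e-05). With quantile normalization 7 of the 10 genes were called higher at 1 h: Srsf2 stood at 0.01 and Srsf3 at -0.01 (adjusted p = 0.719 and 0.763). The 1 h call of Srsf3 was lost without the first untreated library or any single 1 h library, that of Srsf4 without the second untreated or the first or the second 1 h library, and the 12 h call of Srsf4 against untreated without the third 12 h library.

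**Figure D2:**
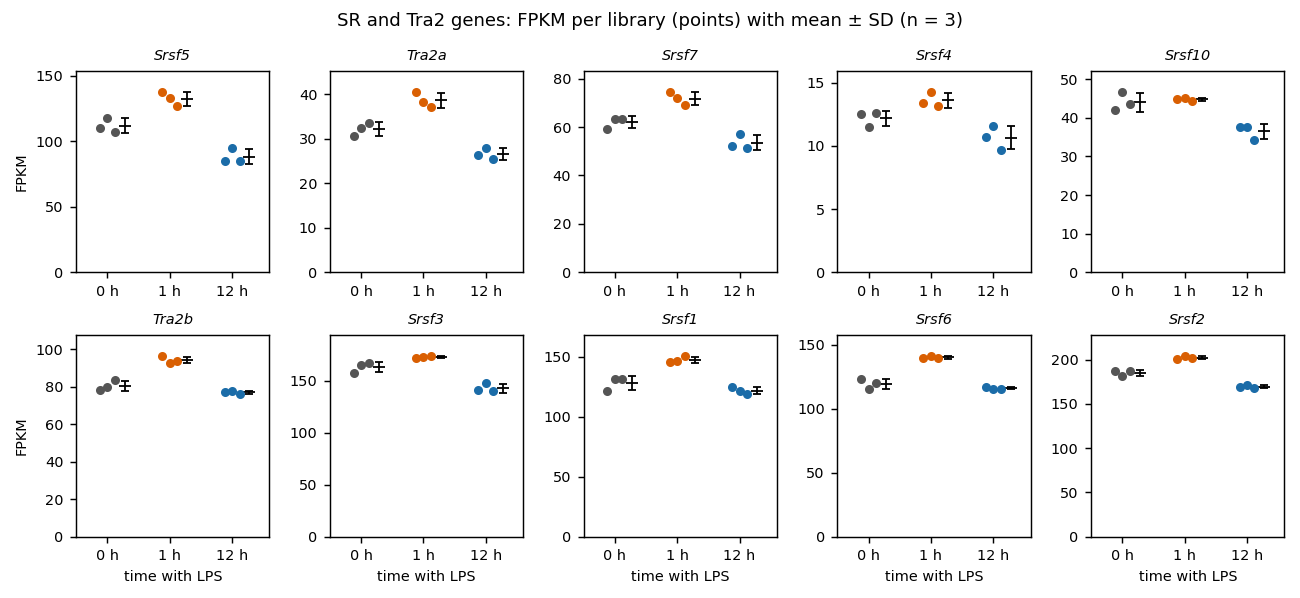
FPKM of the 10 SR and Tra2 genes in each library (points) at 0, 1 and 12 h with LPS, with mean ± SD (n = 3) beside them; axes start at 0. In 9 genes all 3 libraries at 1 h lie above the untreated libraries, and in all 10 the 12 h libraries lie below the 1 h libraries.

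The promoters of 4 genes are shown because these are the 2 SR class genes with the largest fall and the 2 members with the largest late rise (Rbmx and Magohb, described with their classes). Each runs from 250 bases before to 50 bases after a RefSeq transcription start in GRCm38.p6, on the strand of the gene; Srsf5 lies at chr12:80945249-80945548 (+), Tra2a at chr6:49264003-49264302 (-), Rbmx at chrX:57392987-57393286 (-) and Magohb at chr6:131293195-131293494 (-). Capitals mark matches, on either strand, to the motifs searched.
Srsf5: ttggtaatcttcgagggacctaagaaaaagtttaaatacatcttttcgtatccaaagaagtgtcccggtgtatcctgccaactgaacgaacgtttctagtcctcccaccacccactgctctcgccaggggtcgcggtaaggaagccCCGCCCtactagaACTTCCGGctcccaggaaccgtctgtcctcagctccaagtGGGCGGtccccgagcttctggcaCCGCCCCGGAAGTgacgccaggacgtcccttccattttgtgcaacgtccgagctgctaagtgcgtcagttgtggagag
Tra2a: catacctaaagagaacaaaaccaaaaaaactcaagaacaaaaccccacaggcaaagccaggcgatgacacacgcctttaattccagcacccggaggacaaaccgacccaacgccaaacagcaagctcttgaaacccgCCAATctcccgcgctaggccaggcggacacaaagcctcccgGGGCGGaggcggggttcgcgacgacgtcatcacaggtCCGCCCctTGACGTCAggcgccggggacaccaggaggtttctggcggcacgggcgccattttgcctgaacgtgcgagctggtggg
Rbmx: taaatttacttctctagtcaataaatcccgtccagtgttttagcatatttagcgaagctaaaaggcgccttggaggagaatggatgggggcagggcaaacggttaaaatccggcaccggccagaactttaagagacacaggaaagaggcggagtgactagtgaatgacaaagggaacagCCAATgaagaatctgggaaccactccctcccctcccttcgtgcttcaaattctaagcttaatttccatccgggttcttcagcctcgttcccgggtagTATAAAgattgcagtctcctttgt
Magohb: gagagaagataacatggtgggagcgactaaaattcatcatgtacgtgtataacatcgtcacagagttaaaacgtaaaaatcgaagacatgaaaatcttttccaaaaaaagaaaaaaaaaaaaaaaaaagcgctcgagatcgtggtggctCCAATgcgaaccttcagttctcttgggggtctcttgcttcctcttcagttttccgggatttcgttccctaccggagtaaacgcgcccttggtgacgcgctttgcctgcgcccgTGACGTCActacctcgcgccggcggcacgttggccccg
In Srsf5 the capitals are ETS (CCGGAAGT) and SP1 (GGGCGG) matches, 1 of each overlapping. In Tra2a they are a cyclic AMP response element (CRE, TGACGTCA), SP1 and CCAAT, in Rbmx CCAAT and a TATA box (searched as TATAAA), and in Magohb CRE and CCAAT.

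RefSeq promoters were matched by symbol for 47 of the 63 members, giving 64 promoters. ETS was found in 17.2% of these, in 8.16% of the promoters of tested genes and in 3.89% of all 32851 promoters of the same length. CRE was found in 6.25%, 3.16% and 1.79%, and the E-box CACGTG in 14.1%, 10.6% and 7.15%. SP1 was found in 62.5%, 65.3% and 35.7%, and in 11 of the 12 SR and Tra2 promoters. The NF-kB motif GGANTTTCC was in 1 member promoter, that of Ncbp1, and the AP-1 motif TGANTCA in 1, that of Snrpc (tested genes 1.44% and 5.34%, all promoters 1.25% and 7.81%). YY1 (AAGATGGCG) was in 6.25%, 2.94% and 1.40%, NRF1 (GCGCATGCG) in 4.69%, 3.997% and 1.75%, TATA in 15.6%, 6.47% and 13.6%, and CCAAT in 40.6%, 37.8% and 37.4%. These are letter matches in a fixed window, and several starts of 1 gene can share sequence.

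In the hnRNP class 3 of 7 genes rose and 1 fell at 1 h, where 24.1% of tested genes were called higher and 34.9% lower. From 1 h to 12 h 6 fell and 1 rose, beside 43.6% and 41.9% of tested genes, and at 12 h 4 stood below and 1 above untreated, beside 40.6% and 41.1%. Its medians were 0.04, -0.25 and -0.10. With quantile normalization 2 genes were higher and 2 lower at 1 h with a median of -0.046, and 6 of 7 were below untreated at 12 h with a median of -0.27. Hnrnpu, a nuclear scaffold protein, measured 107, 113 and 109.9 FPKM in the untreated libraries, 113, 113 and 110.4 at 1 h and 92.6, 97.5 and 89.01 at 12 h. The untreated and 1 h libraries overlapped and all 12 h libraries were lower, with 0.03 (SE 0.034, adjusted p = 0.436) at 1 h and -0.27 (SE 0.034, adjusted p = 4.61e-06) from 1 h to 12 h. Hnrnpm measured 107, 110.5 and 112 FPKM in the untreated libraries, 107, 107 and 104 at 1 h and 89.7, 92.5 and 83.9 at 12 h. It too was not called at 1 h, at -0.05 (SE 0.035, adjusted p = 0.216), although quantile normalization called it lower, at -0.17 (adjusted p = 0.00101); it fell afterwards with a difference of -0.25 (SE 0.035, adjusted p = 1.03e-05). Hnrnpc, which binds uridine tracts, measured 69.3, 68.9 and 70.7 FPKM in the untreated libraries, 71.8, 70.7 and 71.7 at 1 h and 69.04, 66.99 and 66.6 at 12 h. The fall after 1 h was small, -0.08 (SE 0.028, adjusted p = 0.0158), and the call was lost without the third 12 h library. Against untreated at 12 h it was not called, but with quantile normalization it was lower, at -0.19 (adjusted p = 3.96e-05).

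Hnrnpa3, a relative of hnRNP A1 that has processed copies in the genome, so its reads may be shared, measured 29.4, 30.97 and 28.8 FPKM in the untreated libraries, 28.4, 26.4 and 27.1 at 1 h and 22.4, 22.9 and 20.7 at 12 h. This gene fell in both intervals, with differences of -0.12 (SE 0.044, adjusted p = 0.0311) and -0.30 (SE 0.044, adjusted p = 1.73e-05), and its groups did not overlap. The 1 h call was lost without the second untreated library or the second or the third 1 h library. Pcbp1, a poly(C)-binding protein, measured 264, 257 and 258 FPKM in the untreated libraries, 283, 300.3 and 291 at 1 h and 259, 248 and 252 at 12 h. It rose by 0.16 (SE 0.028, adjusted p = 0.000175) and fell by 0.20 (SE 0.028, adjusted p = 9.27e-06), ending with libraries that overlapped the untreated ones; with quantile normalization the rise was 0.04 (adjusted p = 0.208) and the 12 h level was below untreated, at -0.27 (adjusted p = 8.01e-07). Rbmxl1, an intronless copy of Rbmx, measured 26.9, 27.6 and 26.5 FPKM in the untreated libraries, 31.98, 30.7 and 30.9 at 1 h and 25.1, 25.9 and 24.5 at 12 h. All 1 h libraries were above and all 12 h libraries below the untreated ones, with differences of 0.20 (SE 0.034, adjusted p = 0.000198), -0.30 (SE 0.034, adjusted p = 1.59e-06) and -0.10 (SE 0.034, adjusted p = 0.0156); the last call was lost without the second untreated or the third 12 h library.

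Rbmx, an X-linked hnRNP known as hnRNP G, measured 5.58, 5.62 and 6.97 FPKM in the untreated libraries, 6.84, 7.01 and 7.03 at 1 h and 11.1, 11.9 and 10.4 at 12 h. The 12 h libraries were all higher than the other 6, while the third untreated library overlapped the 1 h values. The rise after 1 h was 0.61 (SE 0.068, adjusted p = 1.33e-06) and the difference at 12 h against untreated was 0.79 (SE 0.068, adjusted p = 7.44e-08), the largest of any member. At 1 h the difference was 0.18 (SE 0.068, adjusted p = 0.0364), a call lost without the first or the second untreated library or any single 1 h library. Rbmx and Rbmxl1 moved in opposite directions after 1 h, but they share sequence, so how the deposited values divide reads between them is uncertain.

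**Figure D3:**
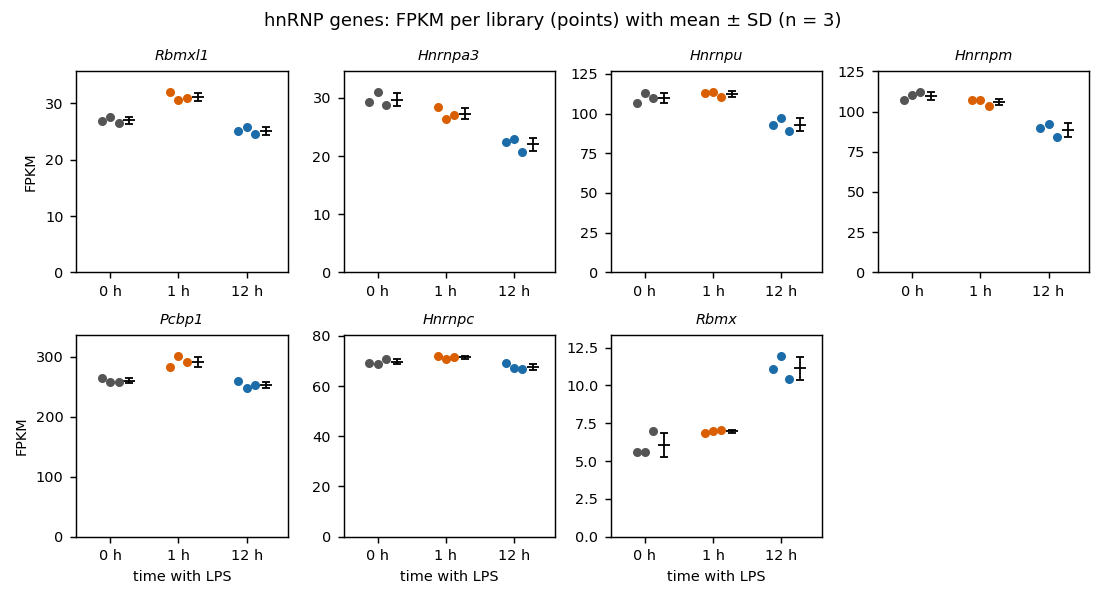
FPKM of the 7 hnRNP genes in each library (points) at 0, 1 and 12 h with LPS, with mean ± SD (n = 3) beside them; axes start at 0. The 12 h libraries lie below the 1 h libraries in 6 genes and above them in Rbmx.

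Proteins of the snRNPs made up 25 members out of 62 genes listed for these particles, 27 of which were in the table. By class the members were 1 of 8 listed Sm, 3 of 7 LSm, 7 of 8 U1 and 9 of 22 U2 genes. For the U4/U6 and U5 snRNPs and their tri-snRNP they were 5 of 17. At 1 h 12 rose (48%, beside 24.1% of tested genes) and none fell. From 1 h to 12 h 14 fell (56%, beside 43.6%) and 2 rose (8%, beside 41.9%). At 12 h against untreated 10 were lower (40%) and 9 higher (36%), shares close to the 40.6% and 41.1% of tested genes. The medians were 0.10, -0.10 and 0.01. With quantile normalization 6 were higher and 2 lower at 1 h, and 5 higher and 15 lower at 12 h against untreated. At 12 h the 3 LSm members were called lower than untreated. Of the 5 members of the U4/U6 and U5 snRNPs and their tri-snRNP 4 were called higher. A difference between these small classes was not tested.

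Among the ring proteins, Snrpb, which encodes the Sm proteins B and B′, measured 137, 130.3 and 133 FPKM in the untreated libraries, 149, 149.6 and 140.3 at 1 h and 126, 133 and 125 at 12 h. It rose by 0.13 (SE 0.034, adjusted p = 0.00428) and fell by 0.19 (SE 0.034, adjusted p = 0.000113), and the 12 h and untreated libraries overlapped. Quantile normalization ended its 1 h call, at 0.028 (adjusted p = 0.462), and put Snrpb below untreated at 12 h, at -0.25 (adjusted p = 5.75e-06); it was also called below untreated without the second 12 h library. Lsm6, a subunit of the LSm rings of U6 RNA and of mRNA decay, measured 18.8, 20.6 and 19.7 FPKM in the untreated libraries, 18.97, 19.7 and 18.4 at 1 h and 14.5, 14.5 and 14.6 at 12 h. The 1 h and untreated libraries overlapped, and every 12 h library was lower, with a difference of -0.36 (SE 0.040, adjusted p = 1.01e-06). Lsm7 measured 39.7, 36.4 and 35.4 FPKM in the untreated libraries, 39.1, 37.2 and 35.6 at 1 h and 29.4, 27.3 and 28.8 at 12 h. The pattern was the same, with -0.38 (SE 0.047, adjusted p = 3.75e-06) from 1 h to 12 h. Lsm2, of the same ring, rose by 0.11 (SE 0.037, adjusted p = 0.0247) and then fell by 0.30 (SE 0.037, adjusted p = 3.59e-06) to below untreated; its 1 h call was lost without the second untreated library or the second or the third 1 h library, and with quantile normalization, at 0.046 (adjusted p = 0.305).

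In the U1 snRNP and its associated factors 5 of 7 genes rose at 1 h, and 4 of these 5 fell afterwards. Over all tested genes 24.1% rose at 1 h and 12.5% rose and then fell. Ddx5, an RNA helicase that also acts as a transcription coregulator, measured 194, 203 and 198 FPKM in the untreated libraries, 240.4, 232 and 235 at 1 h and 172, 178 and 174 at 12 h. The 3 groups were separate, with 0.25 (SE 0.027, adjusted p = 3.32e-06), -0.43 (SE 0.027, adjusted p = 2.86e-09) and -0.18 (SE 0.027, adjusted p = 2.2e-05). Rbm25, an RS-related protein bound to U1, measured 33.04, 36.7 and 36.05 FPKM in the untreated libraries, 42.5, 42.5 and 43.02 at 1 h and 31.8, 32.5 and 31.6 at 12 h. The differences were 0.27 (SE 0.038, adjusted p = 3.26e-05) and -0.41 (SE 0.038, adjusted p = 1.73e-07), and the groups were again separate. Of the proteins specific to the U1 particle, Snrnp70 was 0.15 (SE 0.033, adjusted p = 0.00165) higher at 1 h, a call lost with quantile normalization at 0.064 (adjusted p = 0.11), while Snrpa and Snrpc were called in no contrast. Some alternatives did call them at 12 h against untreated: Snrpa higher with array weights or without the first untreated library, Snrpc lower with quantile normalization. Snrnp70 was also called higher at 12 h against untreated, by 0.09 (SE 0.033, adjusted p = 0.0173), a call lost without the second untreated or the second 12 h library, and with quantile normalization the value was -0.04.

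U2 genes went both ways. Smndc1, the splicing factor SPF30, measured 22.7, 21.6 and 22.9 FPKM in the untreated libraries, 28.3, 27.7 and 28.1 at 1 h and 25.5, 26.1 and 26.6 at 12 h. All treated libraries were above the untreated ones; the differences were 0.31 (SE 0.034, adjusted p = 2.92e-06) at 1 h and 0.21 (SE 0.034, adjusted p = 5.12e-05) at 12 h. Its fall between these times, -0.10 (SE 0.034, adjusted p = 0.0112), was not called without the first 12 h library. Sf3b4, a subunit of SF3b, which holds the branch point, measured 82.6, 82.8 and 82.9 FPKM in the untreated libraries, 93.3, 92.7 and 99.1 at 1 h and 98.7, 98.5 and 99.4 at 12 h. It was higher at both times, by 0.20 (SE 0.029, adjusted p = 6.28e-05) and 0.25 (SE 0.029, adjusted p = 1.59e-06); with quantile normalization these were 0.11 (adjusted p = 0.00807) and 0.075 (adjusted p = 0.0313). A further rise from 1 h to 12 h was called just with array weights or without the third 1 h library. U2af2, which binds the polypyrimidine tract, was higher at both times too (0.11 and 0.14), but with quantile normalization the 1 h value was 0.04 and the 12 h value -0.02. Sf3b3, another SF3b subunit, measured 56.4, 56.6 and 57.6 FPKM in the untreated libraries, 59.9, 59.5 and 56.4 at 1 h and 47.99, 47.8 and 47.7 at 12 h. In contrast to Sf3b4 it was not called at 1 h and then fell by 0.29 (SE 0.031, adjusted p = 7.21e-07). The helicases Ddx46 and Ddx42 and the SF3a subunit Sf3a2 fell after 1 h as well, with differences of -0.27, -0.25 and -0.25, without a called rise. For Ddx46 all 1 h libraries already lay below the untreated ones, at -0.07 (adjusted p = 0.0841). It was called lower at 1 h with no filter and with quantile normalization, at -0.13 (adjusted p = 0.00214) with the latter. Ddx46 stood lowest of the U2 genes against untreated, at -0.34 (SE 0.031, adjusted p = 1.24e-07). Phf5a was higher at 12 h against untreated by 0.16 (SE 0.043, adjusted p = 0.00306); with quantile normalization this was 0.04 and not called.

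For the U4/U6 and U5 snRNPs and the tri-snRNP, Usp39, a tri-snRNP protein needed for its entry into the spliceosome, measured 19.98, 19.9 and 19.1 FPKM in the untreated libraries, 20.5, 19.3 and 19.04 at 1 h and 24.6, 22.2 and 24.3 at 12 h. Untreated and 1 h libraries overlapped and all 12 h libraries were higher, by 0.26 (SE 0.044, adjusted p = 6.86e-05) against 1 h. Snrnp27, a tri-snRNP protein with an RS domain, measured 29.7, 30.1 and 28.9 FPKM in the untreated libraries, 28.7, 28.4 and 28.6 at 1 h and 33.5, 33.1 and 36.4 at 12 h. It likewise rose only after 1 h by the tests run, by 0.25 (SE 0.038, adjusted p = 2.05e-05); with quantile normalization it was lower at 1 h, at -0.11 (adjusted p = 0.0256). Prpf3, a U4/U6 protein, was 0.12 (SE 0.041, adjusted p = 0.0221) higher at 1 h and 0.15 (SE 0.041, adjusted p = 0.00385) at 12 h; the 1 h call was lost without the second untreated or the first or the second 1 h library, and with quantile normalization. Prpf31 was 0.09 (SE 0.032, adjusted p = 0.0156) higher at 12 h against untreated, a call lost without the third untreated library, and with quantile normalization the value was -0.00151. Eftud2, the U5 GTPase, changed little, with group means of 52.2 ± 0.367, 55.2 ± 0.295 and 52.7 ± 0.669 FPKM (SD, n = 3); its rise of 0.08 was lost without the second untreated or the first 1 h library, and its fall of -0.07 without any 1 h library or the first or the second 12 h library. With quantile normalization the 1 h value of Eftud2 was 0.0088 (adjusted p = 0.799) and its 12 h value against untreated -0.11 (adjusted p = 0.00179).

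Among proteins that join for catalysis, 3 of 4 Prp19-related members rose at 1 h, beside 24.1% of tested genes. The list for this class held 20 genes. Bud31, a catalytic-core protein, measured 47.2, 47.1 and 46.3 FPKM in the untreated libraries, 53.1, 52.96 and 49.7 at 1 h and 63.1, 62.9 and 61.6 at 12 h. Its level was higher at each successive time with no overlap, by 0.14 (SE 0.032, adjusted p = 0.00148) and then 0.26 (SE 0.032, adjusted p = 2.59e-06); with quantile normalization the 1 h value was 0.07 and not called. Rbm22, which contacts the catalytic RNA, rose by 0.19 (SE 0.039, adjusted p = 0.00106) and fell by 0.22 (SE 0.039, adjusted p = 0.000114). Wbp11 rose by 0.09 (SE 0.036, adjusted p = 0.0456) and fell by 0.23 (SE 0.036, adjusted p = 3.22e-05); its 1 h call was lost without any single 1 h library, the second or the third untreated library, or the first 12 h library, and with quantile normalization. Pqbp1 was 0.17 (SE 0.053, adjusted p = 0.0103) above untreated at 12 h, a call lost without the third 12 h library. Of the step and release factors, 2 of 5 rose and fell, beside 12.5% of tested genes. Prpf38b measured 15.99, 17.2 and 16.3 FPKM in the untreated libraries, 19.8, 21.2 and 19.3 at 1 h and 14.9, 15.999 and 14.9 at 12 h. It rose by 0.27 (SE 0.045, adjusted p = 0.000148) and fell by 0.37 (SE 0.045, adjusted p = 2.58e-06). Its 12 h libraries overlapped the untreated ones at -0.10 (SE 0.045, adjusted p = 0.0471), a call lost without the second or the third untreated, the first 1 h, or the first or the third 12 h library. Dhx15, the helicase that takes the spliceosome apart, rose by 0.13 (SE 0.038, adjusted p = 0.00835) and fell by 0.09 (SE 0.038, adjusted p = 0.0421); the fall was not called without the first or the second 1 h or the third 12 h library. With quantile normalization its rise was not called, at 0.052 (adjusted p = 0.269), and its 12 h value against untreated was -0.11 (adjusted p = 0.0232). The helicases Dhx38 and Dhx8 were above untreated at 12 h by 0.11 and 0.10, calls lost without the second untreated or the first or the second 12 h library, or with quantile normalization, for Dhx38, and without the first untreated or the second 12 h library for Dhx8.

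Exon junction, TREX export and cap-binding genes spread widely in both directions. Of 10 members 5 rose and 1 fell at 1 h, beside 24.1% and 34.9% of tested genes. From 1 h to 12 h 7 fell and 2 rose, beside 43.6% and 41.9%. At 12 h against untreated 6 were lower and 2 higher, beside 40.6% and 41.1%. Ncbp2, the small subunit of the nuclear cap-binding complex, measured 43.4, 43.2 and 45.00 FPKM in the untreated libraries, 40.7, 41.8 and 38.8 at 1 h and 25.3, 27.8 and 27.3 at 12 h. The 12 h libraries were far below the rest, with -0.58 (SE 0.040, adjusted p = 7.26e-09) against 1 h and -0.69 (SE 0.040, adjusted p = 7.99e-10) against untreated, the lowest of any member. Its 1 h difference of -0.12 (SE 0.040, adjusted p = 0.0226) was not called without the third untreated or the third 1 h library. Ncbp1, the large subunit, was called in no contrast, with group means of 34.9 ± 0.557, 35.8 ± 1.78 and 35.6 ± 0.897 FPKM (SD, n = 3).

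Magohb, a core protein of the exon junction complex and near-identical to Magoh, measured 5.12, 4.38 and 4.49 FPKM in the untreated libraries, 4.88, 5.35 and 5.77 at 1 h and 7.36, 7.20 and 8.03 at 12 h. All 12 h libraries were higher than the other 6, by 0.43 (SE 0.065, adjusted p = 2.3e-05) against 1 h. The 1 h and untreated libraries overlapped, and the 1 h call, at 0.16 (SE 0.065, adjusted p = 0.0446), was lost without the second or the third untreated, the second or the third 1 h, or the first 12 h library. Reads of Magohb may be shared with Magoh, so its level is uncertain. Its partner Eif4a3, the helicase that anchors the complex, rose by 0.13 (SE 0.037, adjusted p = 0.00919) and fell by 0.28 (SE 0.037, adjusted p = 6.97e-06); with quantile normalization the 1 h call was lost, at 0.056 (adjusted p = 0.249). Rbm8a, the third core protein, whose reads may be shared with a near-identical copy, fell after 1 h with a difference of -0.11 (SE 0.031, adjusted p = 0.00376); it was not called against untreated at 12 h, but was lower there with quantile normalization, at -0.19 (adjusted p = 9.21e-05), with array weights and without the first untreated library.

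In TREX, which couples splicing to export, Alyref, the export adaptor, measured 101, 97.8 and 102 FPKM in the untreated libraries, 121, 118 and 109 at 1 h and 95.6, 96.6 and 89.6 at 12 h. It rose by 0.21 (SE 0.040, adjusted p = 0.000493) and fell by 0.30 (SE 0.040, adjusted p = 7.03e-06); at 12 h it was -0.09 (SE 0.040, adjusted p = 0.0462) from untreated, a call lost without the first or the third untreated, the second 1 h, or the first or the third 12 h library. Thoc3 and Thoc1 fell after 1 h, with differences of -0.31 (SE 0.040, adjusted p = 5.01e-06) and -0.28 (SE 0.043, adjusted p = 2.35e-05). Thoc1 had risen at 1 h by 0.11 (SE 0.043, adjusted p = 0.0425). That call was lost with array weights. It was also lost without the first or the third untreated, the second or the third 1 h, or the first 12 h library. Ddx39b, the TREX helicase also called UAP56, measured 92.6, 93.6 and 91.8 FPKM in the untreated libraries, 98.1, 96.9 and 96.3 at 1 h and 108, 108 and 104 at 12 h. The 3 groups were separate and ascending, with 0.07 (SE 0.026, adjusted p = 0.0415), 0.13 (SE 0.026, adjusted p = 0.000347) and 0.20 (SE 0.026, adjusted p = 6.74e-06). This direction depended on the scaling: with quantile normalization the values were -0.06, 0.05 and -0.01, none called, and the 1 h call was lost without any single untreated or 1 h library or the first 12 h library.

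The 2 remaining members were Hspa8 and Rp9. Hspa8, the constitutive HSP70 chaperone, with many processed copies in the genome, measured 1231, 1231 and 1251 FPKM in the untreated libraries, 1473, 1401 and 1304 at 1 h and 1410.2, 1353 and 1374 at 12 h. All treated libraries were above the untreated ones, by 0.17 (SE 0.035, adjusted p = 0.001) at 1 h and 0.16 (SE 0.035, adjusted p = 0.000936) at 12 h. With quantile normalization the 1 h value was 0.08 and not called, and the 12 h value was -0.12 (adjusted p = 0.0378), while the change from 1 h to 12 h was -0.20 (adjusted p = 0.00209). Rp9, a retinitis pigmentosa protein, measured 23.3, 23.6 and 23.9 FPKM in the untreated libraries, 21.2, 19.5 and 22.02 at 1 h and 17.00, 15.1 and 16.3 at 12 h. It fell at each step, with differences of -0.17 (SE 0.049, adjusted p = 0.00895) and -0.36 (SE 0.049, adjusted p = 1e-05); the 1 h call was lost without the second 1 h library.

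**Figure D4:**
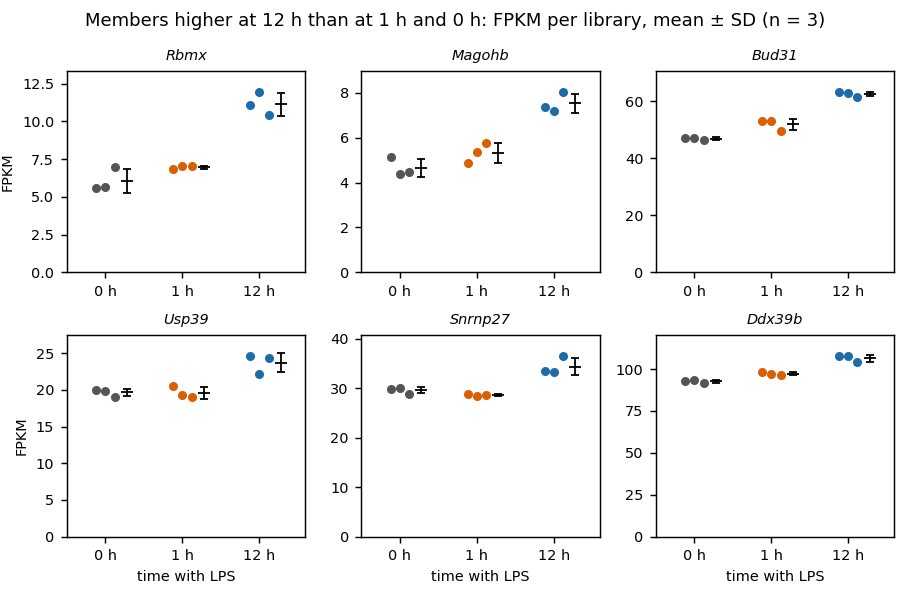
FPKM in each library (points) of the 6 members called higher at 12 h than at 1 h, with mean ± SD (n = 3) beside them; axes start at 0. In each gene all 3 libraries at 12 h lie above the 1 h libraries; with quantile normalization Ddx39b is not called.

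Annotation gave features that the choice of members did not use. In GENCODE M21, 29 of 63 members (46.0%) had a transcript annotated as subject to nonsense-mediated decay, against 1667 of 5514 matched tested genes (30.2%). By class these were 9 of 10 SR and Tra2 genes (all but Srsf10), 14 of 25 snRNP genes (56%) and 2 of 7 hnRNP genes (Hnrnpu and Rbmx). The 9 SR and Tra2 genes were the same 9 that rose and then fell, though with quantile normalization Srsf2 and Srsf3 were not called higher at 1 h. Outside this class, Alyref, Eif4a3, Lsm2, Pcbp1, Rbm22, Rbmxl1 and Thoc1 rose and then fell with no such transcript annotated. Conversely, Hnrnpu, Magohb, Prpf3, Prpf31, Rbmx, Snrnp70, Snrpa, U2af1, U2af2 and Usp39 had such a transcript without that pattern. A link between the annotation and the pattern was not tested. A retained-intron transcript was annotated for 50 members (79.4%) and 62.9% of matched tested genes. The deposited values are per gene, so the use of these transcripts was not measured. The nuclear speck term was held by 26 members, of which 15 rose and 1 fell at 1 h and 19 fell and 1 rose afterwards. Of the other 37 members, 20 rose and 2 fell at 1 h, and 23 fell and 5 rose afterwards. Of the 161 tested genes with that term, which include these 26 members, 53 rose and 42 fell at 1 h, and 97 fell and 41 rose afterwards. Over all tested genes 24.1% were called higher and 34.9% lower at 1 h, and 43.6% lower and 41.9% higher from 1 h to 12 h.

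Splicing genes outside the pathway term were taken from 5 lists, and these counts cover only those in the table that passed the filter. They are read against the 24.1% of tested genes called higher and 34.9% lower at 1 h, and the 41.9% higher and 43.6% lower from 1 h to 12 h. Of 7 SR kinases and phosphatases 1 rose at 1 h (14.3%) and 5 fell from 1 h to 12 h (71.4%). Clk1, a kinase of SR proteins, measured 27.5, 29.4 and 28.2 FPKM in the untreated libraries, 35.5, 34.1 and 33.7 at 1 h and 19.3, 20.8 and 19.6 at 12 h. Its groups were separate, with 0.27 (SE 0.039, adjusted p = 4e-05) at 1 h and -0.76 (SE 0.039, adjusted p = 2.19e-10) afterwards. Ppp1r8, a regulator of a nuclear phosphatase, was the one that rose after 1 h, by 0.15. Of 9 other SR-related proteins 5 rose (55.6%) and none fell at 1 h, then 8 fell (88.9%); Srsf11 rose most (0.25) and Pnisr fell most (-0.52).

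Of 26 other hnRNPs and regulatory RNA-binding proteins 7 rose at 1 h (26.9%, near the share of tested genes) and 1 fell, and 21 fell (80.8%) and 1 rose afterwards. Elavl1, a stabiliser of AU-rich messages, rose most at 1 h (0.20), and Hnrnpul2 was the gene called lower (-0.12). Hnrnph1 fell most after 1 h (-0.58) and Mbnl2, a muscleblind protein, was the one that rose (0.43). In the snRNP assembly list no gene fell after 1 h: of 8 genes 4 rose (50%) and 1 fell at 1 h, 4 rose afterwards (50%, near the 41.9%), and 6 ended above untreated (75%, beside 41.1%). Gemin5, the SMN complex subunit that binds snRNAs, measured 21.3, 21.7 and 20.7 FPKM in the untreated libraries, 22.8, 22.5 and 22.98 at 1 h and 26.2, 27.1 and 26.6 at 12 h. It rose at each step, by 0.10 and 0.22. Gemin2 fell at 1 h with a difference of -0.21 and rose afterwards by 0.29. Of 4 minor-spliceosome genes, too few for their share to be read, 2 rose at 1 h, led by Rnpc3 (0.23), and 1, Zcrb1, rose afterwards (0.10). No difference between these lists was tested.

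**Figure D5:**
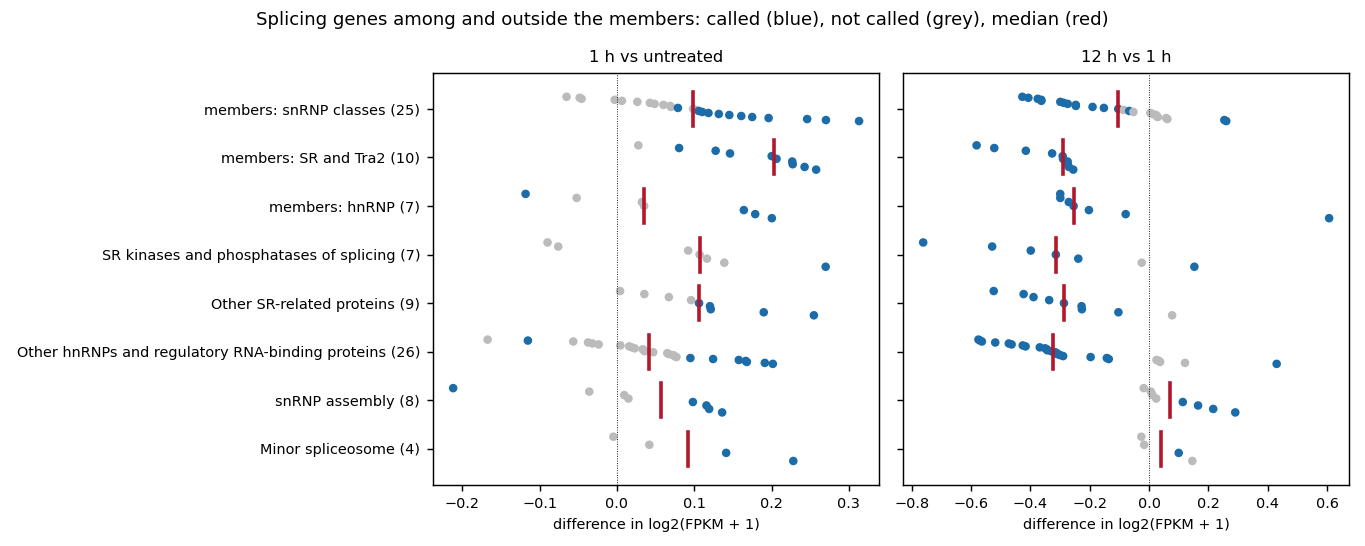
Differences in log2(FPKM + 1) of single genes (points; blue called at adjusted p under 0.05, grey not) and list medians (red) for 1 h against untreated and 12 h against 1 h, with the number of genes in parentheses and different scales in the 2 panels. All 10 SR and Tra2 genes are called lower at 12 h against 1 h, and no gene of the snRNP assembly list is.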

How the data were processed

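RNA of 9 BV2 libraries was sequenced after TRIzol extraction with a stranded mRNA kit, per the labels' protocols. The authors deposited FPKM per gene, with a p-value, a q-value and a rank score per the file headers; the test behind those columns is not stated, and they were not used for calls. Per the submitters' processing notes the tools, with no version or role given, included HISAT2, HTSeq, Cufflinks, DESeq and Trimmomatic. The notes name GRCh38, a human build, beside mouse symbols, so no gene position was taken from them; whether counting used strand is not given in the sources used here. Depth is unknown because the table gives no counts.

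Log2(FPKM + 1) was fitted with limma 3.58.1 in R 4.3.3 over all 9 libraries, with 1 mean per group and eBayes with trend. The pseudocount of 1 understates changes of low genes. Benjamini-Hochberg adjustment ran over the 5643 genes with a mean of at least 1 FPKM, and a gene was called at an adjusted p under 0.05; the genes left out below that level numbered 819. Since listed genes were selected on these samples, adjusted p-values are not a false discovery rate over the transcriptome. A verb of change after a value means a called difference, and an SE is that of the log2 difference. The script was tested on simulated data.

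The members, classes and lists were chosen with earlier results of these data known. Named genes are, per class, the called members with the 3 largest changes each way at 1 h and from 1 h to 12 h and the 2 largest each way at 12 h against untreated, all SR, Tra2 and hnRNP members, and those called against their class median; per outside list, the largest called change each way in a contrast. Some further members were named after their values were seen. Promoters came from RefSeq (GRCm38.p6) and transcript types from GENCODE M21. Protein features were not analysed here. Single values of some members are not reported here, although counts and medians include them. Alternatives were pseudocounts of 0.1 and 0.5, no filter, a mean of at least 5 FPKM, quantile normalization, median-of-ratios scaling, no trend, array weights, fits of just the 6 libraries in a contrast, a block for library number, adjustment over 21878 genes (the number implied by the deposited ranks), and leaving out each library.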

Additional observations from a re-analysis of the deposited data

Results flagged for a closer look

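In 16 members the level was called above untreated at 1 h and below untreated at 12 h, so that the effect had opposite directions at the 2 times. The difference between the 2 effects is the contrast of 12 h against 1 h, which uses the same libraries as the effects themselves. It was called in each, which follows from how these members were chosen and adds no support. On the log2 scale, for the 15 members given here, it was Alyref -0.30, Ddx5 -0.43, Eif4a3 -0.28, Lsm2 -0.30, Prpf38b -0.37, Rbm25 -0.41, Rbmxl1 -0.30, Srsf2 -0.26, Srsf3 -0.27, Srsf4 -0.33, Srsf5 -0.58, Srsf7 -0.42, Thoc1 -0.28, Tra2a -0.52 and Wbp11 -0.23. Of these, 6 are SR and Tra2 genes. With quantile normalization the 1 h effect of Srsf3 was -0.01, and no longer opposite to its 12 h effect. The 1 h calls of Eif4a3, Lsm2, Srsf2 and Wbp11 were lost with that setting too. Leaving out single libraries ended a 1 h or a 12 h call in Alyref, Lsm2, Prpf38b, Rbmxl1, Srsf3, Srsf4, Thoc1 and Wbp11.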

How the results depend on the processing

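Quantile normalization moved the counts at 1 h and at 12 h against untreated: at 1 h 20 members were higher and 6 lower with a median of 0.046, at 12 h against untreated 10 were higher and 43 lower with a median of -0.19, and 17 rose and then fell; the cause was not tested. From 1 h to 12 h the settings gave 5 to 8 members higher and 39 to 45 lower. Adjustment over the implied 21878 genes left 25 members higher and 1 lower at 1 h. Leaving out 1 library gave 26 to 37 members higher and 1 to 3 lower at 1 h. It gave a median of -0.0858 to -0.0581 at 12 h against untreated. Calls held under every alternative in 16 of 35 members higher and 0 of 3 lower at 1 h, in 38 of 42 lower and 5 of 6 higher from 1 h to 12 h, and in 26 of 30 lower and 8 of 17 higher at 12 h against untreated.

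Signs changed in 58 values of 33 member contrasts given here. With quantile normalization these were, at 1 h, Ddx39b -0.0582, Hnrnpc -0.0461, Hnrnpu -0.0744, Lsm7 -0.0466, Ncbp1 -0.0269, Rbm8a -0.0180, Sf3b3 -0.0269, Snrpa -0.0174, Snrpc -0.0583, Srsf10 -0.0483 and Srsf3 -0.0126; from 1 h to 12 h, Prpf31 -0.0157, Sf3b4 -0.0307, Snrpa -0.0283, Snrpc -0.0530 and U2af2 -0.0597; and at 12 h against untreated, Ddx39b -0.00791, Dhx15 -0.106, Eftud2 -0.112, Hspa8 -0.119, Ncbp1 -0.0745, Prpf31 -0.00151, Snrnp70 -0.0406, Snrpa -0.0457, Snrpc -0.111, U2af1 -0.131 and U2af2 -0.0211. Median-of-ratios scaling gave Snrpc -0.00179 from 1 h to 12 h and Usp39 0.00677 at 1 h. Array weights gave Prpf38a 0.0136 and Snrpc -0.00817 from 1 h to 12 h, and Usp39 0.00428 at 1 h. Leaving out 1 library gave ranges across 0 at 1 h for Lsm7 -0.0275 to 0.0546, Ncbp1 -0.00688 to 0.0570, Srsf10 -0.00567 to 0.0690 and Usp39 -0.0343 to 0.0172; from 1 h to 12 h for Dhx38 -0.00851 to 0.0414, Hspa8 -0.0592 to 0.0284, Ncbp1 -0.0306 to 0.0332, Prpf3 -0.0152 to 0.0607, Prpf38a -0.0404 to 0.0507, Snrpa -0.00381 to 0.0367 and Snrpc -0.0322 to 0.0244; and at 12 h against untreated for U2af1 -0.0181 to 0.0663. None of the members whose sign changed on leaving out a library was called in that contrast.

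Libraries of the same number had residual correlations from -0.067 to 0.13, within the -0.15 to 0.14 of libraries of different number. With 3 libraries per group these values cannot exclude a pairing. With the number as a replicate block 35 members were higher and 3 lower at 1 h, 6 and 42 from 1 h to 12 h, and 17 and 30 at 12 h against untreated; the block ended the 1 h calls of Ddx39b and Wbp11 and added those of Phf5a and U2af1. Depth is unknown, so counting error could not be given.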
